A study of Mus musculus with 4 samples.

Results

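The EGR zinc finger factors, the NAB corepressors that bind them and the NR4A orphan nuclear receptors were examined in group 2 innate lymphoid cells (ILC2s) of the mouse colon. The set holds 8 genes of the 27179 in the count table: Egr1, Egr2 and Egr3, Nab1 and Nab2, and Nr4a1, Nr4a2 and Nr4a3. They were chosen by name as members of these families, after the difference between diets in these same libraries was known, so the diet values of the members below are a description and carry no test. C57BL/6J mice were fed either a control or a high-fiber diet, and RNA of their sorted colonic ILC2s was sequenced, with 2 mice per diet and 1 mouse per library. All 4 libraries share strain and tissue, and the labels give no allele or agent besides the diet. The sources used here do not state the age or sex of the mice, the kind of fiber, the time on the diet or the gates of the sort.

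Egr and Nr4a genes are immediate early genes: resting lymphocytes keep them low, and signals through antigen or cytokine receptors, calcium and MAP kinases switch them on without new protein synthesis. EGR proteins bind GC-rich DNA through zinc fingers, and NAB1 and NAB2 dock onto EGR1, EGR2 and EGR3 and repress their activity, which closes a feedback loop. NR4A proteins are nuclear receptors that act without a classical ligand, bind DNA as monomers or dimers, and are widely used as a readout of recent receptor signalling in lymphocytes. In T cells, EGR2, EGR3 and the NR4A factors are also known for roles in tolerance and exhaustion.

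Promoters of the members with the largest differences between diets, other than Egr1, are shown with matches to known motifs marked. That of Nr4a3 is added to complete its family. RefSeq promoters of GRCm38.p6, from 250 bases before to 50 bases after the transcript start, were found for 6 of the 8 members, and not for Egr1 and Egr3. Each is printed 5′ to 3′ on the strand of its gene. Capitals mark matches to the core of the cyclic AMP response element (TGACG or its reverse complement), to the EGR site (GCGNGGGCG on either strand) and to the CArG box bound by serum response factor. For Egr2, which has 5 listed starts, the start shared with a coding transcript in GENCODE is shown.
Nr4a1 (chr15:101266596-101266895, plus strand): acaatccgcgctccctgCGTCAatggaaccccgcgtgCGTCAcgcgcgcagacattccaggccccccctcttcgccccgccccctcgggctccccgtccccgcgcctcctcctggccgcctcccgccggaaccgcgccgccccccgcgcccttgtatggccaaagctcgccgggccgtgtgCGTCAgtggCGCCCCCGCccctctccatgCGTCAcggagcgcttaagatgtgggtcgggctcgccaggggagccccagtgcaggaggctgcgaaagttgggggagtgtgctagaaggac
Nr4a2 (chr2:57123954-57124253, minus strand): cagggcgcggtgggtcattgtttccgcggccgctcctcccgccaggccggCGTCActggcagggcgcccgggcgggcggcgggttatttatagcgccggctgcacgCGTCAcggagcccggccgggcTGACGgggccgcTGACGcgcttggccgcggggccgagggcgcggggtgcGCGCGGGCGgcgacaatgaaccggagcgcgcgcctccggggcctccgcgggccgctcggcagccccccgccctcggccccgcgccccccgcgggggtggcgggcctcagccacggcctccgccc
Nr4a3 (chr4:48045055-48045354, plus strand): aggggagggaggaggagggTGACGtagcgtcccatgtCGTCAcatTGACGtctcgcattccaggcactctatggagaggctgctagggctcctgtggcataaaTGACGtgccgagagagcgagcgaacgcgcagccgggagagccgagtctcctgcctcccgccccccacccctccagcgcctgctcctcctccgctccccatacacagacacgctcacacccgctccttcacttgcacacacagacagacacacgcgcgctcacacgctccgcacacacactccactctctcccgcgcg
Egr2 (chr10:67537619-67537918, plus strand): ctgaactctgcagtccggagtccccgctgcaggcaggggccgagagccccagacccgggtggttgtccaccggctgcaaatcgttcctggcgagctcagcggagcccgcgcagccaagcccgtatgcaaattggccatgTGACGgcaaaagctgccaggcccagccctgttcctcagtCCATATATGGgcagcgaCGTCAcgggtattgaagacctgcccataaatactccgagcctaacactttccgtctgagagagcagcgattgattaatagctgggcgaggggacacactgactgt
Nab1 (chr1:52500399-52500698, minus strand): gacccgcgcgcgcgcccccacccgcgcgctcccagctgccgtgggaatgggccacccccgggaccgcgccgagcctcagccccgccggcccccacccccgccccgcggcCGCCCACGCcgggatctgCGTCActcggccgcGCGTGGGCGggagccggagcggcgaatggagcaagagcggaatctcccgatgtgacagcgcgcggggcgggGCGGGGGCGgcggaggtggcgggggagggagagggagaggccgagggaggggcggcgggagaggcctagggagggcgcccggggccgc

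The 3 NR4A promoters shared one feature: each held 4 matches to TGACG, counted on both strands, where 0.232% of 32817 listed mouse promoters of the same length held 4 or more and 20.8% held at least 1. In Nr4a1 the matches began 233, 213, 69 and 40 bases before the start, in Nr4a2 200, 144, 123 and 111 bases before it, and in Nr4a3 231, 213, 205 and 147 bases before it. The Egr2 promoter held 2 matches to TGACG on either side of a CArG box, CCATATATGG, which began 72 bases before the start. A CArG box was present in 1.63% of all listed promoters. The Nab1 promoter held 3 EGR sites, beginning 141, 109 and 38 bases before the start, where 0.195% of promoters held 3 or more and 5.56% held any. Nr4a1 and Nr4a2 had 1 EGR site each. The Nab1 and Nr4a2 promoters were each 81.7% G and C against a median of 52.7% over all listed promoters. Those of Nr4a1 and Nr4a3 were at 72.3% and 64.7%. The EGR site is itself GC-rich, and TGACG holds a CG. The shares over all listed promoters are not matched for base composition. The Nab2 promoter matched none of these motifs. The full palindrome TGACGTCA, the NR4A monomer site AAAGGTCA and the AP-1 site TGANTCA were absent from the promoters taken for these 6 members. Of all listed promoters, 1.79%, 1.51% and 7.81% held them. TGACG lies within TGACGTCA, so those motifs overlap. A match is only a match of letters.

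Library totals lay between 20253987 and 30406730 counts, and 11841 genes entered the test. Values per library are given as CPM, counts scaled by library size and by TMM to equal composition. A log2 fold change is the high-fiber minus the control level with its standard error (SE), so negative values mean lower on the high-fiber diet. High-fiber library 2 stands apart from the other libraries in these data (Spearman correlations across genes of 0.921 to 0.929 with them, against 0.937 to 0.944 among the other 3), so values without it are given below. The labelled cell type was checked against its markers: none of the 17 ILC2 genes examined was at 0, their summed level lay between 15520 and 20570 CPM, Gata3 was at 1614, 1025, 1295 and 766 CPM and Il1rl1 at 495, 443, 607 and 486 CPM in control 1, control 2, high-fiber 1 and high-fiber 2.

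On the high-fiber diet the transcripts of Egr1, Egr2, Nr4a1 and Nr4a2 were 3.09-fold to 4.45-fold lower than on the control diet by the means of 2 mice, while the corepressor Nab1 was 2.45-fold higher. In these 5 genes neither high-fiber library overlapped either control library. The ranges of Egr3, Nab2 and Nr4a3 overlapped between diets. Groups did not overlap, in the lower direction, for 4 of the 8 members against 19.6% of all tested genes, and in the higher direction for 1 of 8 against 18.5%. In the fit across all genes (edgeR's quasi-likelihood test, Benjamini-Hochberg adjusted p under 0.05), 0 of the 8 members passed, where 0.0338% of tested genes did. At an unadjusted p under 0.05, 4 members were lower and 1 was higher, where 4.1% of all tested genes were lower and 4.7% higher. DESeq2 called the same 4 lower, where it called 0.635% of its tested genes lower, and Nab1 higher, where it called 1.28% higher. limma-voom called 0 genes of any kind. Since the members were chosen with this comparison known, nothing is read from these counts. In sorted bulk RNA, fewer cells expressing a gene and less RNA per cell cannot be told apart.

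**Figure D1:**
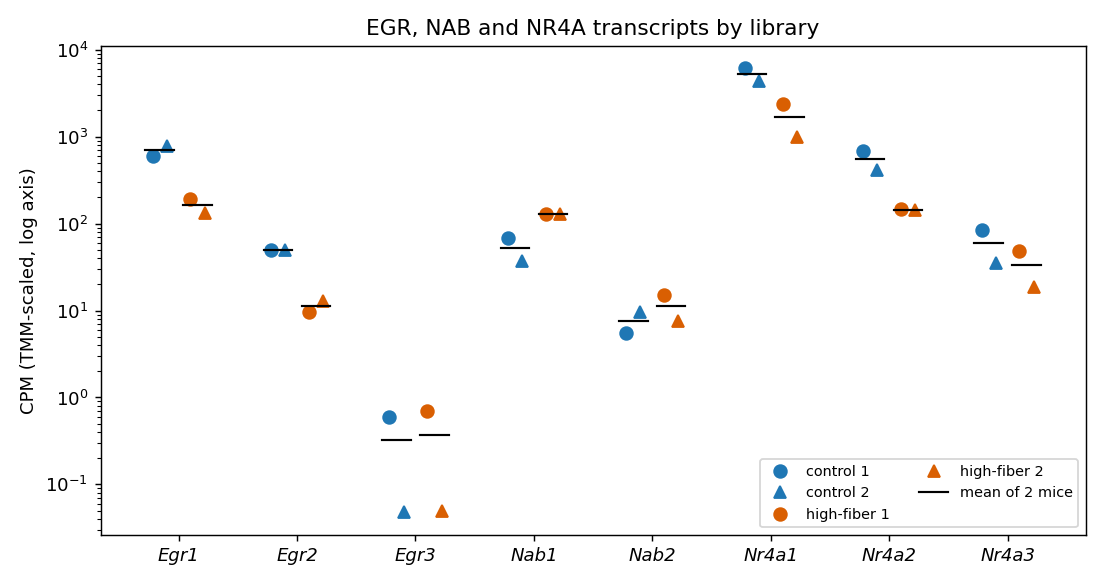
Level of each of the 8 genes in each library, in TMM-scaled CPM on a log axis, with circles for library 1, triangles for library 2 and bars for the mean of 2 mice. Egr1, Egr2, Nr4a1 and Nr4a2 sit lower and Nab1 sits higher in both high-fiber libraries, whereas Egr3, Nab2 and Nr4a3 overlap.

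Among the EGR factors, Egr1 (NCBI gene 13653, chromosome 18 from 34861207 to 34864956 in GRCm38), a direct target of serum response factor, was the most abundant. It stood at 599 CPM in control library 1, 788 in control library 2, 189 in high-fiber library 1 and 134 in high-fiber library 2; values of a diet are given in this order of libraries from here on. The lowest control value was 3.16-fold above the highest high-fiber value, and the means were 693 ± 133 and 162 ± 39.3 CPM (SD, n = 2 each), a log2 fold change of -2.10 ± 0.27. Egr2 (NCBI gene 13654, chromosome 10 from 67534469 to 67542188), which restrains activation in T cells and drives myelination in Schwann cells, stood at 49.5 and 49.9 CPM on the control diet and at 9.53 and 12.8 CPM on the high-fiber diet. The 2 control values differed by less than 1 CPM, and the lowest of them was 3.86-fold above the highest high-fiber value (log2 fold change -2.18 ± 0.38). The counts behind Egr2 were 1495, 1047, 275 and 261.

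Egr3 (NCBI gene 13655, chromosome 14 from 70077317 to 70082613), an EGR factor that acts with Egr2 in T cell tolerance, was close to the limit of detection. Its counts were 18 and 1 in control libraries 1 and 2 and 20 and 1 in high-fiber libraries 1 and 2. Summed over 2 mice, the ratio of high-fiber to control was 1.15 with an exact 95% counting interval of 0.588 to 2.26, which leaves out the spread between mice. In both diets library 1 held nearly all Egr3 counts. A difference between diets was not detectable at this depth. The family's last gene, Egr4, which is not among the 8, had 3 counts in control library 1 and 0 elsewhere, and each 0 allows up to 3 counts.

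The composition of the EGR family was similar in the 4 libraries although its total was not. Egr1 made up 92.3% and 94.0% of EGR counts on the control diet and 94.9% and 91.2% on the high-fiber diet. EGR counts as a whole were 0.0645% and 0.0868% of the control libraries and 0.0197% and 0.0144% of the high-fiber libraries. Egr2 counts per 1000 Egr1 counts were 82.6 and 63.4 on the control diet and 50.3 and 95.7 on the high-fiber diet, with overlapping diets.

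The NAB corepressors did not follow the EGR genes. Nab1 (NCBI gene 17936, chromosome 1 from 52455849 to 52500712) stood at 67.8 and 37.2 CPM on the control diet and at 127 and 130 CPM on the high-fiber diet. The high-fiber values lay close together, and the lowest of them was 1.88-fold above the highest control value (52.5 ± 21.7 against 129 ± 1.79 CPM, SD, n = 2 each, log2 fold change 1.27 ± 0.33). Nab2 (NCBI gene 17937, chromosome 10 from 127660918 to 127666703), which EGR factors are known to induce and which then represses them, stood at 5.50 and 9.58 CPM on the control diet and at 15.2 and 7.66 CPM on the high-fiber diet. High-fiber library 2 lay between the control libraries, and the log2 fold change was 0.70 ± 0.64. Without high-fiber library 1 it was 0.10, and without control library 1 it was 0.29. In the GENCODE annotation the gene span of Nab2 overlaps that of Stat6 by 40 bases and that of Nemp1 by 1668 bases, both on the opposite strand. Overlap of exons was not examined, and the counting is not stated to use strand. Reads of Stat6 (7800, 5008, 11116 and 2559 counts) or Nemp1 (320, 251, 294 and 161 counts) from shared bases could not be told apart from those of Nab2.

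A ratio of counts within a library does not depend on scaling between libraries. Per 1000 Egr1 counts there were 113 and 47.2 Nab1 counts in control libraries 1 and 2, and 673 and 970 in high-fiber libraries 1 and 2. Corepressor counts (Nab1 and Nab2) per 1000 EGR counts were 113 and 55.8 on the control diet and 714 and 938 on the high-fiber diet. In each control library EGR counts far outnumbered NAB counts, and in high-fiber library 2 the sums lay closest. Nab2 made up 7.50% and 20.5% of NAB counts on the control diet and 10.6% and 5.57% on the high-fiber diet.

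**Figure D2:**
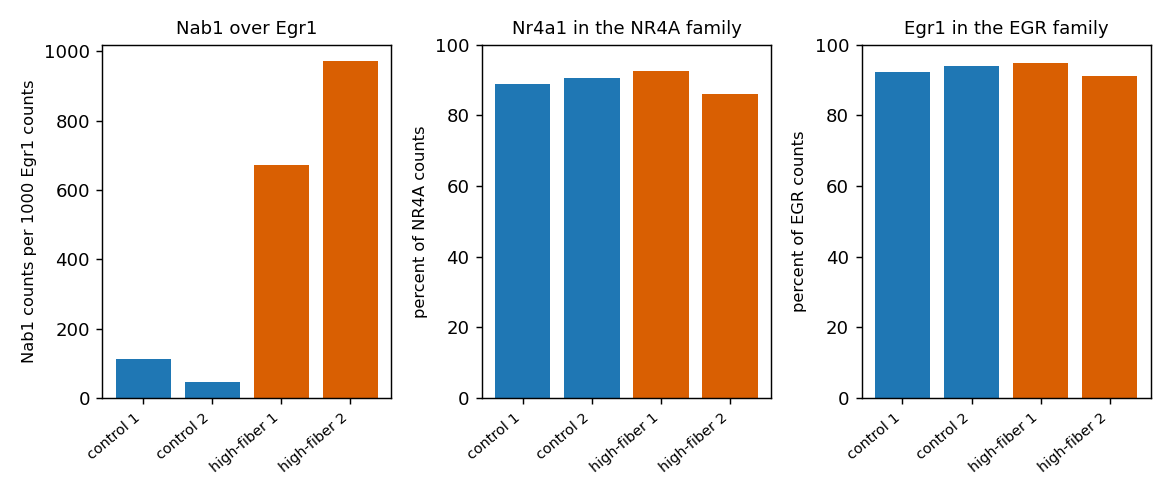
Ratios within each library, drawn as 1 bar per library from 0: Nab1 counts per 1000 Egr1 counts, Nr4a1 as a percent of NR4A counts, and Egr1 as a percent of EGR counts. The ratio of Nab1 to Egr1 is 47.2 to 113 in control and 673 to 970 in high-fiber libraries, while Nr4a1 and Egr1 hold 86.2% or more of their families in each library.

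Among the NR4A receptors, Nr4a1 (NCBI gene 15370, chromosome 15 from 101253902 to 101274795), which encodes NUR77, stood at 6126 and 4339 CPM on the control diet and at 2391 and 1002 CPM on the high-fiber diet. Its lowest control value was 1.81-fold above the highest high-fiber value, a narrower gap than for Egr1 (3.16-fold) or Egr2 (3.86-fold). The means were 5233 ± 1264 and 1696 ± 982 CPM (SD, n = 2 each, log2 fold change -1.62 ± 0.43). Nr4a2 (NCBI gene 18227, chromosome 2 from 57106830 to 57124003), which encodes NURR1, stood at 686 and 417 CPM on the control diet and at 148 and 142 CPM on the high-fiber diet. Here the high-fiber libraries agreed closely and the lowest control value was 2.82-fold above them (log2 fold change -1.93 ± 0.29).

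Nr4a3 (NCBI gene 18124, chromosome 4 from 48045078 to 48086447), which encodes NOR1, stood at 85.4 and 35.6 CPM on the control diet and at 48.8 and 18.6 CPM on the high-fiber diet. High-fiber library 1 lay above control library 2, so the diets overlapped, and the log2 fold change was -0.83 ± 0.57. Without control library 1 it was -0.05, and without high-fiber library 1 it was -1.71. Nr4a3 was more than 2-fold higher in library 1 than in library 2 on both diets (2.40-fold on the control and 2.63-fold on the high-fiber diet). Egr3 (12.5-fold and 14.1-fold), Nr4a1 (1.41-fold and 2.39-fold) and Nr4a2 (1.65-fold and 1.04-fold) were also higher in library 1 of both diets. These 4 of 8 members compare with 28.5% of all tested genes. Library 1 was the more deeply sequenced library in both diets, and the labels do not say that the numbers mark a batch. The part of depth in these differences was not tested.

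NR4A counts took a large share of each library. They were 0.685% and 0.497% of all counts on the control diet, about 1 count in 146 and 1 in 201, and 0.255% and 0.114% on the high-fiber diet, about 1 in 392 and 1 in 876. Nr4a1 made up 88.8%, 90.6%, 92.4% and 86.2% of NR4A counts in control 1, control 2, high-fiber 1 and high-fiber 2, and these shares overlapped between diets, as did those of Nr4a2 (9.94%, 8.70%, 5.70% and 12.2%). The small share of Nr4a3 did not overlap, at 1.24% and 0.744% on the control and 1.89% and 1.60% on the high-fiber diet.

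Levels were compared between genes per kilobase of exon, as CPM per kb. On the control diet Nr4a1 led with a mean of 1491 CPM per kb, rank 25 among 11340 tested genes with an exon length, and on the high-fiber diet it was at 484 CPM per kb, rank 89. Egr1 followed at 155 CPM per kb on the control diet (rank 310) and Nr4a2 at 136 (rank 358), and their libraries overlapped. Egr2 (14.6), Nab1 (12.8) and Nr4a3 (10.1) formed a middle group on the control diet, in which Nab1 overlapped both others and Egr2 lay just above Nr4a3. It stood above Nab2 (2.56) and Egr3 (0.073). On the high-fiber diet Nab1, at 31.4 CPM per kb, had joined Egr1 (36.1) and Nr4a2 (35.7), with Nab1 and Egr1 overlapping between libraries. Egr2 (3.29) was there level with Nab2 (3.88) and Nr4a3 (5.63), and all 3 overlapped. Egr1 moved to rank 1536, Nr4a2 to 1549 and Egr2 from 3093 to 6567, while Nab1 moved from 3400 to 1724. No stretch of 50 bases was shared between the annotated transcripts of any pair of members.

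Leaving out each library in turn kept the sign of 7 members and turned that of Egr3. Without high-fiber library 2 the log2 fold changes were -1.88 for Egr1, -2.39 for Egr2, -1.13 for Nr4a1, -1.91 for Nr4a2 and 1.25 for Nab1. Nr4a1 depended most on this library among those 5, with -2.36 when high-fiber library 1 was left out instead. The 5 members with separate diets kept the direction of their log2 fold change in each of the 4 fits with a library left out, and under each scaling tried. Where diets do not overlap, leaving out a library can hardly turn the direction, so those 4 fits add little.

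**Figure D3:**
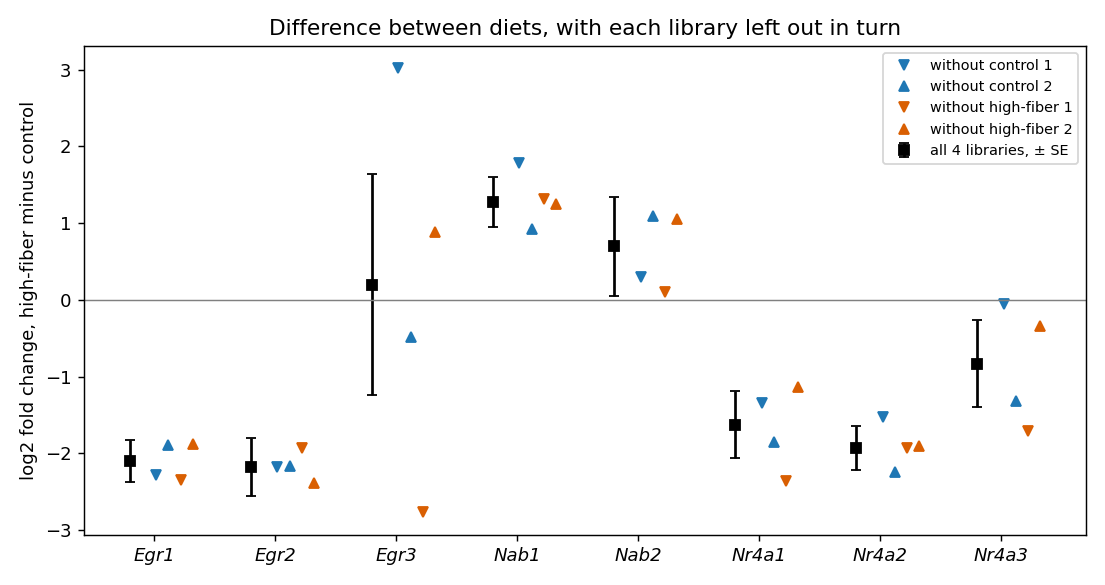
Log2 fold change of each gene between diets with all 4 libraries (squares with SE) and with each library left out in turn (triangles). Egr1, Egr2, Nr4a1 and Nr4a2 stay below -1 and Nab1 stays above 0.9, while Egr3 spans -2.77 to 3.02.

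Other genes of the pathway were taken from lists of upstream factors, kinases and targets, drawn up with earlier results of these data known. Factors upstream of EGR and NR4A genes, activators and repressors together, showed no common direction. The list held serum response factor and its partners, CREB and related factors with its coactivators, MEF2 and NFAT. Of 18 tested, 7 were positive and 11 negative, with a median log2 fold change of -0.04 against -0.02 over all tested genes. Of all tested genes, 51.2% were negative. By edgeR, DESeq2 or an unadjusted p under 0.05, 0 passed. Crem, a cyclic AMP responsive factor, was the most abundant, at 1864 and 1490 CPM on the control and 2233 and 2414 CPM on the high-fiber diet (0.47 ± 0.22). Creb1 (-0.06 ± 0.24), Mef2a (-0.42 ± 0.25) and Nfatc1 (0.21 ± 0.66) came next. Of the 12 genes of the MAP kinase path, 6 were positive and 6 negative (median -0.01), and 0 passed by edgeR, DESeq2 or an unadjusted p under 0.05. Among its abundant members, the kinase genes Rps6ka1 (-0.35 ± 0.28) and Araf (-0.32 ± 0.22) had negative log2 fold changes.

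Genes described as EGR targets in T cells did not move one way. Of 15 listed, 11 were tested, 3 were positive and 8 negative, where 51.2% of all tested genes were negative. The median was -0.32, or -0.15 with a filter of 5 CPM in 2 libraries, and 0 passed by edgeR. Without overlap, 5 of the 11 were lower and 2 higher, against 19.6% and 18.5% of all tested genes. At an unadjusted p under 0.05, 2 of the 11 were higher and 2 lower, against 4.7% and 4.1% of all tested genes. By DESeq2, 1 of the 11 was higher and 1 lower, against 1.28% and 0.635% of its tested genes. DESeq2 called Tnfrsf9, the costimulatory receptor 4-1BB, higher: 227 and 171 CPM on the control and 626 and 402 CPM on the high-fiber diet (1.37 ± 0.29). It called Fasl, the death ligand, lower, with 218 and 49 counts in the control libraries and 0 in each high-fiber library. Set against 3 counts over the group, the summed counts were at least 85.6-fold lower, a counting bound that leaves out the spread between mice. Fasl was named after its values were seen, and with it at that bound the list median stayed at -0.32. The cell cycle inhibitor Cdkn1a (-0.55 ± 0.24), the ubiquitin ligase Rnf128 (-0.41 ± 0.25) and the cytokine signalling inhibitor Socs1 (-0.32 ± 0.23) were the other abundant members.

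Genes linked to NR4A factors in activated and exhausted T cells lay mostly higher, while Nr4a1 and Nr4a2 lay lower and Nr4a3 overlapped. This list too was drawn up with earlier results of these data known. It is not split by whether NR4A factors induce or restrain a gene, so nothing is read from this contrast. Of 14 tested, 10 were positive and 4 negative, where 51.2% of all tested genes were negative. The median was 0.54 against -0.02 over all tested genes. Without overlap, 6 of the 14 were higher and 1 lower, against 18.5% and 19.6% of all tested genes. None passed by edgeR. With no adjustment 4 of the 14 had a p under 0.05 and were higher (4.7% of all tested genes), and 1 was lower (4.1%). DESeq2 called 3 of the 14 higher, against 1.28% of its tested genes, and 0 lower. The 3 were Pdcd1, Irf4 and Tox2. Pdcd1, which encodes PD-1, stood at 418 and 297 CPM on the control and 1299 and 591 CPM on the high-fiber diet (1.40 ± 0.40). Irf4, a factor induced by antigen receptor signals, stood at 27.1 and 22.2 CPM against 89.9 and 58.2 CPM (1.59 ± 0.35), and Tox2 at 0.033 and 2.19 CPM against 54.9 and 13.3 CPM. Irf4 and Tox2 were named after their values were seen. Tox (0.72 ± 0.24), Batf (0.55 ± 0.23) and Runx1 (-0.07 ± 0.33) were the other abundant genes of the list.

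Immediate early genes of other families leaned the same way as the EGR and NR4A genes. Of 35 listed, 34 were tested and 30 were negative, where 51.2% of all tested genes were negative. The median was -0.44 (-0.84 without high-fiber library 1 and -0.305 without high-fiber library 2). Values were lower without overlap in 17 of the 34, against 19.6% of all tested genes. None passed by edgeR. With no adjustment 11 of the 34 had a p under 0.05 and were lower (4.1% of all tested genes), and 1 was higher (4.7%). DESeq2 called 5 of the 34 lower, against 0.635% of its tested genes, and 0 higher. The 5 were Fos, Nfkbid, Atf3, Zfp36 and Ier2. Most of this list was known to lean lower when it was drawn up. The most abundant were Junb (-0.83 ± 0.42), Dusp1 (-0.50 ± 0.28), Nfkbia (-0.33 ± 0.23) and Ppp1r15a (-0.92 ± 0.34). The called genes were named after their values were seen and ran from -0.76 ± 0.22 for Ier2 to -1.38 ± 0.40 for Zfp36, so Egr1, Egr2, Nr4a1 and Nr4a2 had larger log2 fold changes than each of the 5. That difference was not tested.

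**Figure D4:**
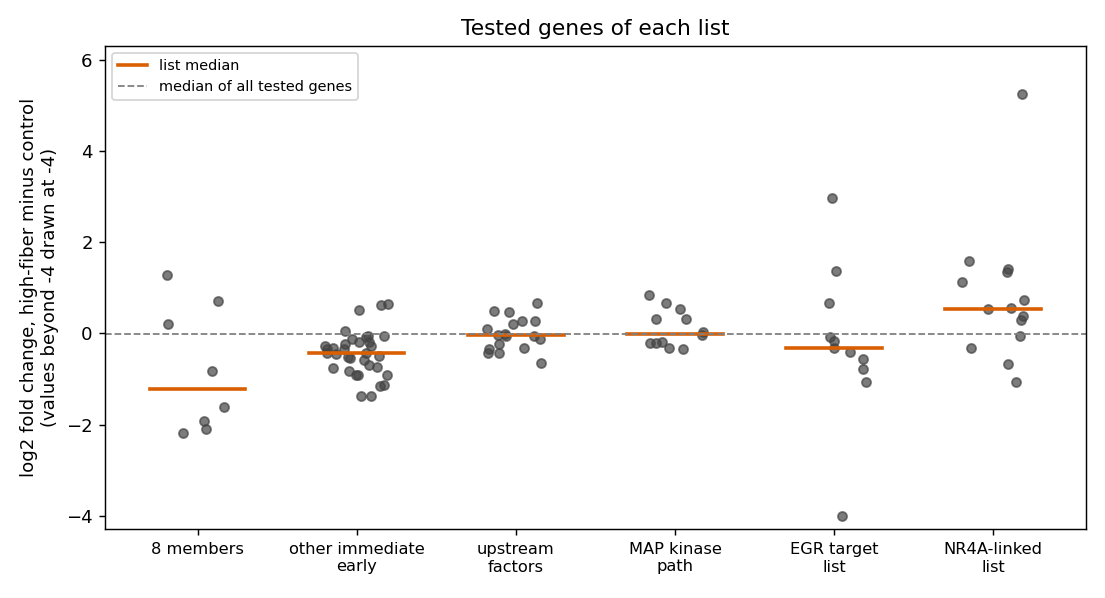
Log2 fold change between diets of each tested gene (points) in the 8 members and 5 lists, with the list median (bar) and the median of all tested genes (dashed line). Fasl, at 0 counts on the high-fiber diet, is drawn at the lower edge; the median is -0.44 for other immediate early genes, near 0 for upstream factors and kinases, and 0.54 for the NR4A-linked list.

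The genes whose pattern over the 4 libraries lay nearest to Egr1 were found among 8889 tested genes with a mean of at least 5 CPM, by the root mean square difference of centred log2(CPM + 1) values. They were Nxpe4 (0.067), Rint1 (0.23), Abi3 (0.23), Slc16a7 (0.25) and Themis (0.26). Nxpe4 stood at 45.5, 58.9, 12.3 and 8.44 CPM in control 1, control 2, high-fiber 1 and high-fiber 2. For Nr4a1 the nearest were Rtn4rl1 (0.10), Itpkc (0.13), Sh2d3c (0.15) and Tmc6 (0.15). Among the members, Egr2 lay 0.34 from Egr1, Nr4a2 lay 0.44 and Nr4a1 0.45, and Nab1 was the farthest at 1.79. With 4 libraries such distances rest on few points.

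Markers of other cells and of stress differed between libraries beside these results. Heat shock genes, induced by stress during cell isolation among other signals, summed to 5503 and 12860 CPM on the control and 6308 and 6592 CPM on the high-fiber diet. Control library 2 stood out. Of the 13 heat shock genes, 12 had negative log2 fold changes, where 51.2% of all tested genes did. The median was -0.51, or 0.25 without control library 2. Of the 13, 3 were lower without overlap (19.6% of all tested genes) and 0 passed by edgeR. With no adjustment, 2 of the 13 had a p under 0.05, both of them lower, against 4.1% of all tested genes. DESeq2 called 1 of the 13 lower, against 0.635% of its tested genes. That gene, Dnajb4, stood at 204 and 208 CPM in the control libraries against 84.0 and 117 CPM in the high-fiber libraries. The heat shock genes thus had mostly negative differences, as did Egr1, Egr2, Nr4a1 and Nr4a2. Without control library 2, Egr1 was at -1.89, Egr2 at -2.17, Nr4a1 at -1.85, Nr4a2 at -2.24 and Nab1 at 0.92 on the log2 scale. B and plasma cell markers summed to 156 and 39.1 CPM against 342 and 1226 CPM, and 0 of the 8 were at 0 throughout. Myeloid markers (9 listed, 0 at 0 throughout) summed to 146 and 287 CPM against 346 and 361 CPM. T cell markers summed to 180 and 213 CPM against 253 and 311 CPM, with Cd5, Cd8a and Cd8b1 at 0 counts in every library, Trac at 14.9, 9.67, 4.15 and 10.6 CPM and Cd3g making up most of the sum. Of the 5 tested T cell markers 4 were negative (median log2 fold change -0.85), against 51.2% of all tested genes. Themis, which is also among the genes nearest to Egr1, had 363 and 334 counts in the control libraries against 52 and 43 counts (-2.83 ± 0.71 on the log2 scale) and was called lower by DESeq2, and Cd3e stood at 5.79 and 13.2 CPM against 1.21 and 5.30 CPM. Of the mast cell markers 4 of 6 and of the epithelial markers 5 of 8 were at 0 counts in every library, and their sums did not exceed 2.45 and 37.3 CPM. Stromal and endothelial markers summed to 42.4 to 64.4 CPM, with 1 of 8 at 0 throughout. ILC3 markers summed to 27.2 and 8.76 CPM against 623 and 340 CPM, with Il22, Il23r and Ccr6 at 0 counts in every library and Il17a and Il17f making up most of the high-fiber sum. The part of these cells and of isolation stress in the values of the EGR, NAB and NR4A genes was not tested.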

How the data were processed

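Bulk RNA sequencing of sorted colonic ILC2s was analysed, 2 mice per diet. Per the labels' protocols, libraries were made with a SMARTer ultra-low-input kit. The submitters' processing notes name CASAVA 1.8.2, STAR 2.3.0 and mm10 but no roles. How reads were counted, and whether by strand, is not stated there. The deposited table holds raw read counts per NCBI gene identifier, of which 25275 of 27179 matched a GRCm38.p6 symbol.

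From these counts, genes were kept by filterByExpr (11841), scaled by TMM and fitted with edgeR 4.0.16 in R 4.3.3 (glmQLFit with legacy=FALSE, glmQLFTest, Benjamini-Hochberg at 0.05, 2 residual degrees of freedom, common biological coefficient of variation 0.607). SEs were computed as the size of the fold change over the root of F. Alternatives were other scalings and filters, a replicate block, each library left out, DESeq2 1.42.0, the older fit (legacy=TRUE), robust fitting and limma-voom (limma 3.58.1). The fit was also run on simulated data with planted changes, but how many of them it called is not given here. Exon lengths are from GENCODE M21. Counting intervals cover counting error only. Libraries 1 and 2 of each diet differed beyond sampling noise (chi-square per gene of 80.3 or more).

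The members and lists were chosen with earlier results of these data known. Named genes were the 8 members, list genes past the threshold, the 4 most abundant tested genes per pathway list and the 5 genes nearest in pattern to Egr1 and to Nr4a1. Of these, 3 are not reported here.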

Additional observations from a re-analysis of the deposited data

How the results depend on the processing

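The log2 fold changes of Egr1, Egr2, Nab1, Nab2, Nr4a1, Nr4a2 and Nr4a3 kept their sign under each of the alternatives run. With all 4 libraries kept, they moved by less than the spread between replicates. That yardstick cannot judge a library left out, because such a shift is itself part of the spread. Without control library 1 Nr4a3 went from -0.83 to -0.05, and without high-fiber library 1 Nab2 went from 0.70 to 0.10. Egr3 ran from -2.77 to 3.02 with a library left out, and its sign turned without control library 2 (-0.49) and without high-fiber library 1 (-2.77). The count of members with separate diets was 5 under each scaling and filter and ran from 6 to 7 with a library left out, where fewer values have to separate. The share of all tested genes was not computed under these settings, so nothing is read from these counts. The number of genes past the threshold was 4 with edgeR, 0 with no filter on low counts, with limma-voom, with legacy=TRUE and with a replicate block, 9 with a filter of 5 CPM in 2 libraries (Egr1 as the 1 lower gene), 238 with DESeq2, and 0 to 1 with a library left out. Over the pathway and heat shock lists it was 0 with edgeR and 11 with DESeq2, 4 higher and 7 lower. Dnajb4 of the heat shock list was among the lower. Of all its tested genes, DESeq2 called 1.28% higher and 0.635% lower. The median of the kinase list, near 0 with all libraries, was positive with limma-voom (0.19), RLE scaling (0.0087), a replicate block (0.085), and without control library 1 (0.052), control library 2 (0.23) or high-fiber library 2 (0.23). That of the upstream factors was positive without control library 1 (0.062) or high-fiber library 2 (0.30). Without high-fiber library 1 they were -0.16 and -0.17. The median of the heat shock list was -0.51, and 0.25 without control library 2. The cause of these shifts was not tested. With the replicate block, Nr4a3 was at -0.86 ± 0.27 against -0.83 ± 0.57 without it. Same-numbered libraries deviated together only weakly (correlation across genes 0.081), so the numbers were not taken to pair the mice. A library left out leaves 1 mouse in its diet, which is assumed to vary like the other 2. At 1 to 20 counts per library, Egr3 limits what can be said of it.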
